A study of Mus musculus with 11 samples.

Results

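The 10 genes described here belong to prolactin signalling in the mammary gland or, as Ghr does, use the same kinase and STATs. By role, these are the receptors Prlr and Ghr, the kinase Jak2, the transcription factors Stat5a, Stat5b and Elf5, and the inhibitors Socs1, Socs2, Socs3 and Cish. They were chosen by name for their place in the pathway, with earlier results of these data known. All 10 were among the 12766 genes with enough reads to test, of 22196 genes in the tables. RNA from whole inguinal mammary glands of 11 mice on normal chow was sequenced. The 6 Knockout mice were Tsc1-fl/fl; Adipoq-Cre-Tg/+, and the 5 Wild-Type mice were Tsc1-fl/fl; Adipoq-Cre-+/+, so both groups carried floxed Tsc1 and only the first carried Cre. The Adipoq promoter drives Cre in adipocytes, and Tsc1 encodes a subunit of the complex that restrains the growth kinase mTORC1. Glands were collected 16 days after delivery. The age label reads PND16.5, and the labels leave unsaid whether it is the age of pups or of the sampled mice. Lactation is not stated in the labels, nor is any litter or batch, so the p-values measure the spread between these libraries.

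Prolactin, from the pituitary, binds its receptor on luminal epithelial cells, where JAK2 bound to the receptor phosphorylates STAT5A and STAT5B. These then enter the nucleus, bind sites of the form TTCNNNGAA and drive the milk protein genes, while the ETS factor ELF5 works with STAT5 in alveolar differentiation. CISH and the SOCS proteins are made in response to the signal and dampen it, and the growth hormone receptor, which is related to the prolactin receptor, uses the same kinase and STATs.

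The palindrome TTCNNNGAA, which reads the same on both strands, was searched in RefSeq promoters of GRCm38.p6, each running from 250 bases before to 50 bases after a gene start. It lay in 2726 of 32851 promoters (8.30%). The set held 15 promoters for 9 of the 10 genes, all but Socs2. The motif was in 3 of the 15, 1 each of Cish, Socs3 and Prlr, and the other Prlr promoters held none. Those stretches are shown because they hold the letters that STAT5 binds, with the motif in capitals and each sequence written 5′ to 3′ along the gene. The Cish stretch, chr9:107296649-107296678 on the plus strand, starts 10 bases before the RefSeq start and holds the motif at 2 places. It lies inside the annotated span of the gene, chr9:107296026-107302784. At least 2 matches were found in 150 promoters (0.457%). The Socs3 stretch is chr11:117969502-117969530 on the minus strand, and the Prlr stretch is chr15:10223786-10223814 on the plus strand. A match is a run of letters and was not measured as a binding site here.
Cish: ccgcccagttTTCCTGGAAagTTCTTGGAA
Socs3: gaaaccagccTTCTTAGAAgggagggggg
Prlr: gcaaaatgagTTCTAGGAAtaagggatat

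Both receptors have several listed forms. Prlr-202 and Prlr-205, and likewise Ghr-201 and Ghr-203, differ in the last coding exon, and the start of that exon is shown. Not all forms are told apart there: the last coding exons of Prlr-203 and Prlr-208 start at the same base. The long form Prlr-202 ends in an exon that encodes the signalling tail inside the cell, whereas the short form Prlr-205 has another, short ending. Ghr-201 encodes the full receptor, and Ghr-203 ends in a separate exon and encodes the secreted growth hormone binding protein. The stretches are in GRCm38 with the GENCODE M21 annotation: Prlr-202 at chr15:10328281-10328400 and Prlr-205 at chr15:10346410-10346499 on the plus strand, Ghr-201 at chr15:3320603-3320722 and Ghr-203 at chr15:3327607-3327686 on the minus strand.
Prlr-202: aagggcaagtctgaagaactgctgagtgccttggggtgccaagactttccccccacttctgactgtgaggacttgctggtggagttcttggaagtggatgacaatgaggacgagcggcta
Prlr-205: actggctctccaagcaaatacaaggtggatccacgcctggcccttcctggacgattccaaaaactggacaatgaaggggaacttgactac
Ghr-201: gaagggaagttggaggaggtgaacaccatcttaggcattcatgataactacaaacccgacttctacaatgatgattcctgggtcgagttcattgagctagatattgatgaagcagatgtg
Ghr-203: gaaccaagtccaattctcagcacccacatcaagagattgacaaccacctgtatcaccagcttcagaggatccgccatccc

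Depth was 25817975 to 37894237 estimated reads per library. The share of reads on the 8 milk protein genes averaged 56.1% ± 3.36 (SD, n = 6) for Knockout and 59.3% ± 2.59 (SD, n = 5) for Wild-Type glands. Tsc1 itself, in CPM (counts scaled to the TMM-adjusted total of the library), spanned 8.29 to 11.9 with Cre and 9.53 to 12.1 without it, and the ranges overlap (log2 fold change -0.09 ± 0.11 (SE), edgeR adjusted p = 0.771). A whole gland holds other cells beside adipocytes, and the gene's total reads do not single out the floxed part. Summed B cell markers reached 49.6 CPM in Wild-Type 2 and 63.7 CPM in Wild-Type 5, against 0.806 to 14.2 CPM in the other libraries, and for several genes the value without that pair is given too. Markers of luminal epithelium were present in every library, at a sum of 406 to 876 CPM.

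None of the 10 genes passed edgeR's quasi-likelihood test at an adjusted p of 0.05, against a background of 0.0627% of genes called (8 of 12766). At an unadjusted p of 0.05, 3 of the 10 passed, Stat5a and Ghr higher and Cish lower in Knockout, where 12.4% of all tested genes did. DESeq2 called 2 of the 10, Ghr and Cish, against a background of 1.08% (145 of 13406). In 7 genes the Knockout mean was higher and in 3 it was lower, with a median log2 fold change of 0.10 against -0.01 over all tested genes. No member had groups that did not overlap in CPM, a pattern seen in 1.33% of tested genes. In a bulk gland, fewer cells of a type and less RNA per cell cannot be told apart.

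**Figure D1:**
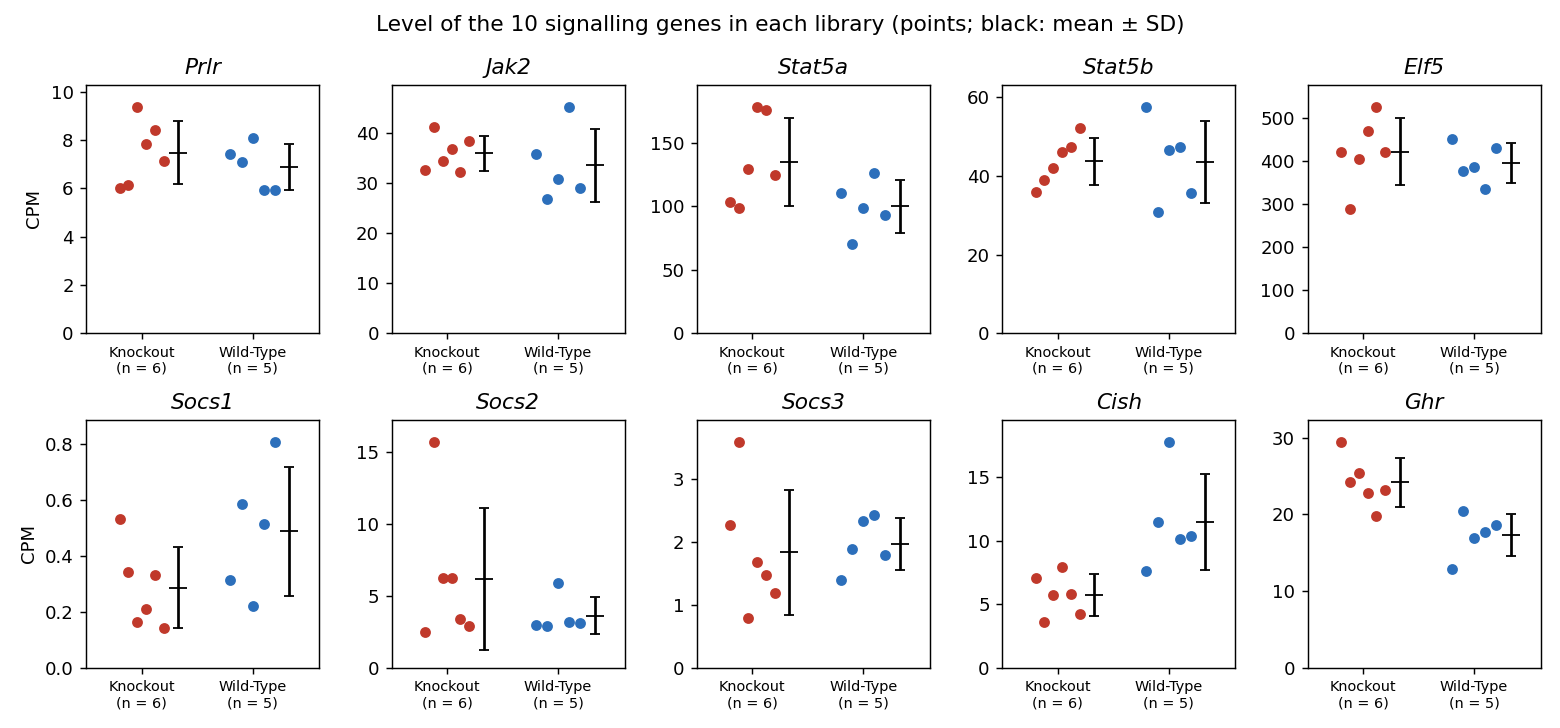
Level of each of the 10 genes in CPM (vertical axes, from 0) in the 6 Knockout and 5 Wild-Type libraries, 1 point per library in replicate order, with the mean and SD in black. The Ghr points lie mostly higher in Knockout and the Cish points mostly lower, and the 2 groups overlap in every panel.

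**Figure D2:**
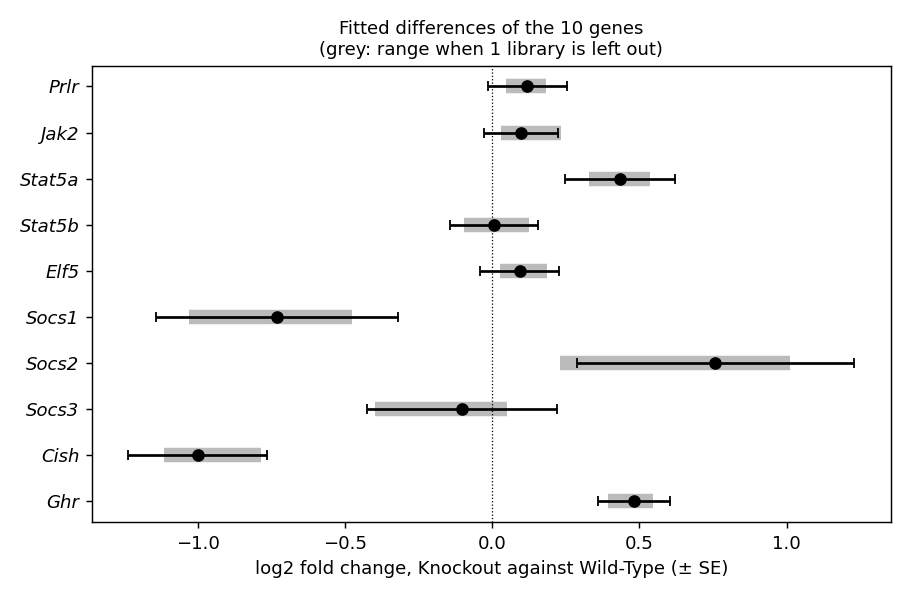
Fitted log2 fold change of Knockout against Wild-Type for each gene (horizontal axis), with its SE as a bar and, in grey, the range when any 1 library is left out. Cish at -0.999 and Ghr at 0.48 lie more than 3 SE from 0, and the lower end of the wide grey range of Socs2, 0.23, is the value without Knockout 2.

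Prlr, the prolactin receptor (chr15:10177238-10349180, plus strand), was at 6.00 CPM at the lowest, 7.49 at the median and 9.36 at the highest in Knockout. The 5 Wild-Type libraries were at 7.41, 7.09, 8.09, 5.94 and 5.92 CPM, in replicate order. The 2 highest libraries were Knockout and the 2 lowest Wild-Type, the other 7 lay in the range common to both groups, and the difference was smaller than its SE (log2 fold change 0.12 ± 0.13, edgeR adjusted p = 0.751). These levels rest on 169 to 284 reads per library.

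The long form Prlr-202 held most Prlr reads in every library. Its CPM ran from 4.59 to 6.94 in Knockout and was 6.00, 5.67, 5.94, 4.42 and 4.77 in Wild-Type. Its mean share of Prlr reads was 78.2% ± 3.87 (SD, n = 6) for Knockout against 78.0% ± 3.63 (SD, n = 5) for Wild-Type. The difference of 0.235 percentage points was far below the spread between libraries (two-sided exact permutation test over 462 assignments, p = 0.918; adjusted over 3 such tests, p = 0.918). A difference of this size has no stable direction: it ranged from -1.06 to 1.12 points when 1 library was left out.

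The short form Prlr-205 held 6.83% of Prlr reads over all libraries, with 2.00 to 30.3 reads per library. Such numbers allow little precision (log2 fold change 0.00 ± 0.54, edgeR adjusted p = 0.999), and the lowest and highest libraries, Knockout 2 and Knockout 3, were both in the same group. Prlr-203, an incomplete model of 555 bases, held 14.4% of reads (log2 fold change 0.14 ± 0.27). Prlr-209, annotated as a target of nonsense-mediated decay, had reads in 6 libraries and at most 8 in any, and Prlr-206, Prlr-208 and Prlr-212 had none. Of the Prlr words of 31 bases, 8.25% also occur in Gm21973, an overlapping gene on the same strand, which had at most 4 reads in a library.

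**Figure D3:**
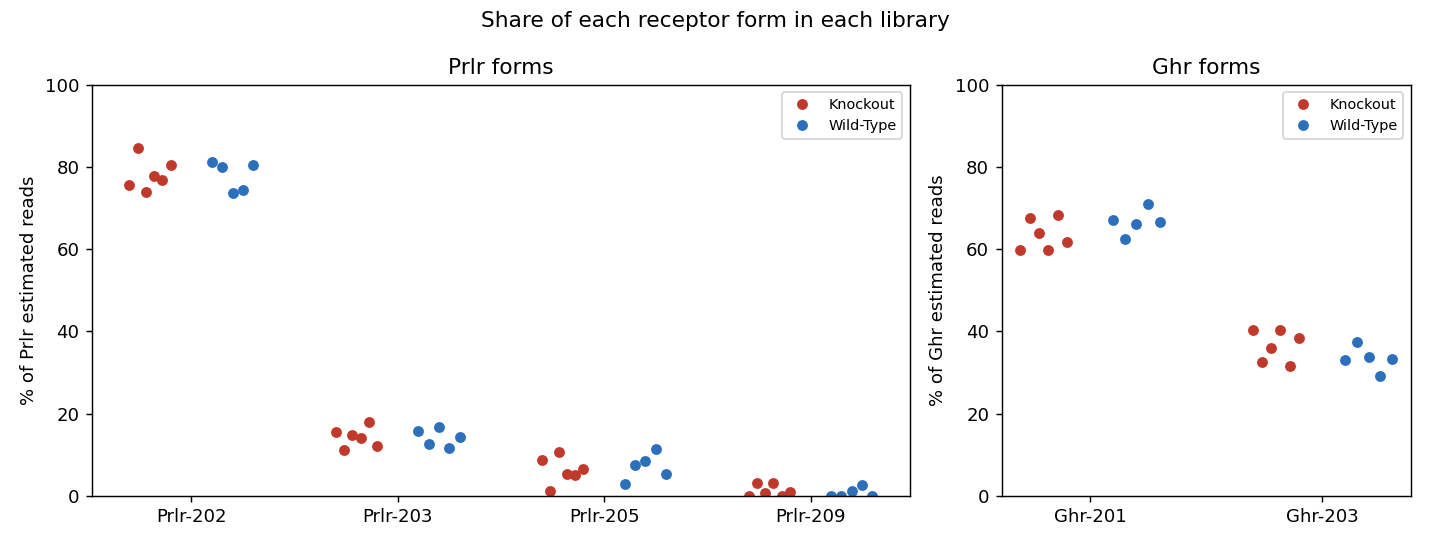
Share of each receptor form in the estimated reads of its gene (vertical axis, percent) for Prlr, left, and Ghr, right, with 1 point per library coloured by genotype. Prlr-202 holds between 73.7% and 84.7% of Prlr reads, and Ghr-201 more than Ghr-203 in every library, in both genotypes.

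Ghr, the growth hormone receptor (chr15:3317760-3583492, minus strand), was higher in Knockout. It ran from 19.8 CPM through a median of 23.8 to 29.4 in Knockout and was 12.9, 20.5, 17.0, 17.7 and 18.6 CPM in Wild-Type. In 5 of 6 Knockout libraries it exceeded every Wild-Type library, and only Knockout 5 and Wild-Type 2 overlap. The means were 24.2 ± 3.19 (SD, n = 6) and 17.3 ± 2.79 CPM (SD, n = 5), and the fitted log2 fold change was 0.48 ± 0.12 (SE). It missed the threshold in edgeR (adjusted p = 0.218) and passed it in DESeq2 (adjusted p = 0.0206; with transcript length factors, 0.0440). By unadjusted p it ranked 96 of all tested genes.

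Both Ghr forms had higher Knockout means. The full receptor Ghr-201 ran from 13.5 to 17.8 CPM in Knockout and was 8.64, 12.8, 11.2, 12.5 and 12.4 CPM in Wild-Type. It was the only one of 18 tested transcripts of these genes whose groups did not overlap, a pattern found in 1.13% of all 18733 tested transcripts. Its log2 fold change was 0.41 ± 0.12, and it did not pass over all transcripts (edgeR adjusted p = 0.439). No transcript of these genes passed that test, which called 0.00534% of all transcripts, and 5 of the 18 had an unadjusted p under 0.05, against 8.71% of all tested transcripts (1632 of 18733).

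The binding protein form Ghr-203 ran from 6.25 to 11.99 CPM in Knockout and was 4.25, 7.67, 5.72, 5.15 and 6.18 CPM in Wild-Type. Here the groups overlap, through Wild-Type 2, and the log2 fold change was 0.62 ± 0.18 (edgeR adjusted p = 0.445). The share of Ghr-203 in Ghr reads was 36.5% ± 3.79 (SD, n = 6) and 33.3% ± 2.97 (SD, n = 5). That share was compared after its values were seen, and the difference of 3.19 points was within the spread between libraries (exact permutation test, p = 0.158).

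Markers of several cell types were higher on average in Knockout. Of 9 adipocyte markers, 7 had higher and 2 lower means there, 5 of them at an unadjusted p under 0.05 and all of these higher, where 12.4% of all tested genes had such a p; edgeR called none and DESeq2 called 2, against 1.08% of all genes. Summed, they spanned 1440 to 1926 CPM with Cre and 1034 to 1471 CPM without it, with Knockout 2 below Wild-Type 1, and none was at 0 in any library. Cfd, the complement factor adipsin, made up most of that gap, with means of 904 ± 200.6 (SD, n = 6) and 527 ± 120 CPM (SD, n = 5), Knockout first. The 8 other adipocyte markers summed to 701 to 816 CPM with Cre and 605 to 816 CPM without it, so the ranges of that sum overlap. Among these 8, Fabp4 (log2 fold change 0.35), Adipoq (0.40), Cidec (0.46) and Retn (0.35) were higher at an unadjusted p under 0.05. Plin1 (0.22) and Lipe (0.18) were higher without reaching it, and Lep (-0.81) and Pnpla2 (-0.25) were lower. Pnpla2, the most abundant of the 8, averaged 278 ± 57.4 (SD, n = 6) and 330 ± 79.3 CPM (SD, n = 5), Knockout first. All 6 fibroblast and all 6 myoepithelial markers also had higher Knockout means, 2 of each at an unadjusted p under 0.05 (12.4% of all genes) and none called by edgeR or DESeq2, with medians of 0.35 and 0.28 in log2 fold change against 0.35 for adipocytes. Summed fibroblast markers spanned 272 to 652 CPM with Cre and 206 to 460 CPM without it, and myoepithelial markers 454 to 633 and 364 to 657 CPM. Knockout 1, the library highest in Ghr, had 703 CPM of skeletal muscle markers, against at most 118 CPM in the others. Within genotype, over 11 libraries, Ghr and the mean of the adipocyte markers had a Pearson r of 0.38 (exact permutation p = 0.265, adjusted over 8 relations p = 0.458) and a Spearman rho of 0.45 (p = 0.183, adjusted p = 0.472). Leaving out the 2 libraries farthest from the median of Ghr, Wild-Type 1 and Knockout 5, gave r = 0.77 (permutation p = 0.0253), so the value depends on those libraries. It was 0.81 among the 6 Knockout and -0.10 among the 5 Wild-Type libraries. The part of these cell types in the Ghr difference was not tested.

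**Figure D4:**
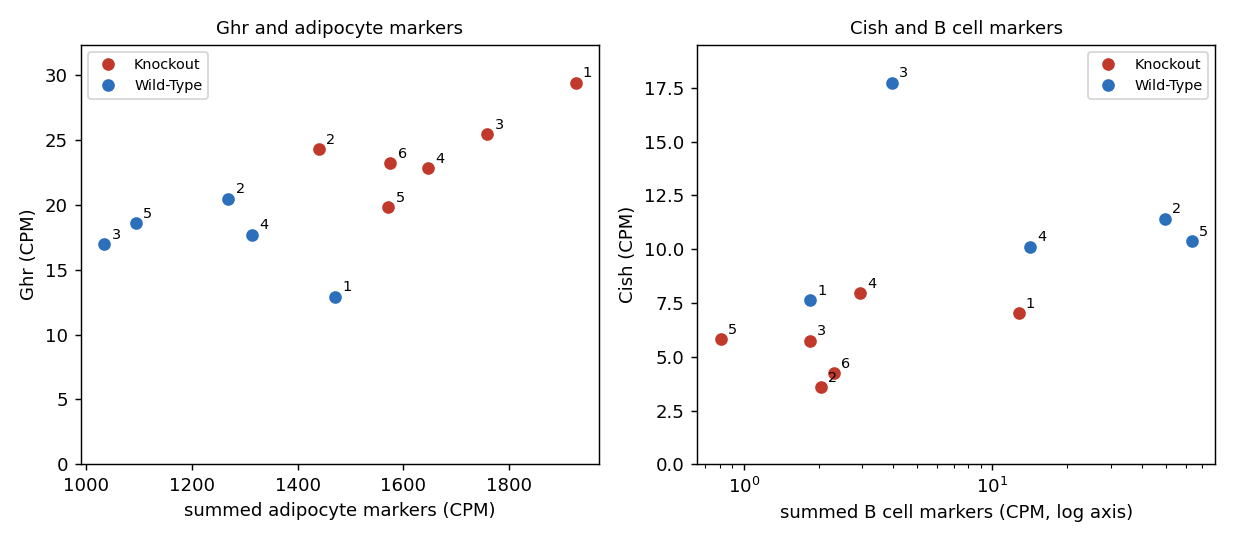
Left, Ghr (CPM) against the summed adipocyte markers (CPM); right, Cish (CPM) against the summed B cell markers (CPM, log axis), with 1 numbered point per library. In the first panel Knockout libraries lie between 1440 and 1926 CPM and Wild-Type libraries between 1034 and 1471 CPM, a gap that is mostly Cfd; Wild-Type 2 and Wild-Type 5 lie farthest right in the second.

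Jak2, the kinase that both receptors use (chr19:29251828-29313080, plus strand), ran from 32.2 CPM through a median of 35.5 to 41.2 in Knockout. In Wild-Type it was 35.8, 26.9, 30.7, 45.1 and 29.0 CPM, so that both the lowest and the highest library were Wild-Type. The fitted difference was 0.10 ± 0.13 on the log2 scale (edgeR adjusted p = 0.781), or -0.05 without Wild-Type 2 and Wild-Type 5.

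Stat5a (chr11:100859351-100885169, plus strand), the main STAT of the mammary response to prolactin, was highest in Knockout 4 and Knockout 5. It ran from 98.3 CPM through a median of 127 to 178 in Knockout and was 111, 69.8, 98.8, 126 and 93.3 CPM in Wild-Type. The groups overlap, with means of 135 ± 34.6 (SD, n = 6) and 99.8 ± 21.05 CPM (SD, n = 5). The log2 fold change was 0.43 ± 0.19 (edgeR adjusted p = 0.379; DESeq2 adjusted p = 0.276). Without Wild-Type 2 and Wild-Type 5 it was 0.27. With transcript length factors it was 0.87 in DESeq2, still short of the threshold (adjusted p = 0.113).

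Stat5b, the neighbouring copy (chr11:100780731-100850724, minus strand), had nearly equal means in the 2 genotypes. It ran from 35.9 to 52.2 CPM in Knockout and was 57.5, 30.8, 46.5, 47.5 and 35.6 CPM in Wild-Type. The means were 43.8 ± 5.95 (SD, n = 6) and 43.6 ± 10.5 CPM (SD, n = 5), with a log2 fold change of 0.01 ± 0.15 (edgeR adjusted p = 0.991).

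Reads can be hard to divide between the pair. Of the words of 31 bases in the coding sequence, Stat5a shared 34.22% with Stat5b, and Stat5b shared 35.91% with Stat5a. The longest identical run is 324 bases, from coding base 571 to 894 in both genes, and its first 60 bases are shown as the stretch in which a read names neither gene.
Stat5a and Stat5b: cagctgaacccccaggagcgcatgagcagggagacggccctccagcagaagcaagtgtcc

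The sum of the 2 genes does not depend on that division. The mean sums were 179 ± 38.4 (SD, n = 6) and 143 ± 29.96 CPM (SD, n = 5), Knockout first, and the ranges overlap. The difference of 0.32 in mean log2 CPM did not exceed the spread between libraries (exact permutation test, p = 0.130, adjusted over 3 tests p = 0.195). It was 0.196 without Wild-Type 2. Stat5a took 74.2%, 71.6%, 75.5%, 79.4%, 78.7% and 70.5% of the summed reads in Knockout libraries 1 to 6. In Wild-Type libraries 1 to 5 it took 65.8%, 69.4%, 68.0%, 72.7% and 72.4%. The difference of 5.33 percentage points had an exact permutation p of 0.0346, and 0.104 after adjustment over 3 tests.

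TPM gives another picture of the pair. Stat5a-204, a model of 155 bases with an effective length of 4 bases, held 0.123% to 0.437% of the Stat5 reads but 40.0% to 69.0% of the Stat5 TPM, since TPM divides by effective length. In TPM the sum of Stat5a and Stat5b differed by 1.00 in mean log2 (exact permutation p = 0.00866), against 0.32 in CPM. Stat5a also overlaps Stat3 on the opposite strand, and whether strand was used in counting is not given in the sources used here.

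Elf5 (chr2:103411688-103450989, plus strand) was the most abundant of the 10. It ran from 288 CPM through a median of 421 to 524 in Knockout and was 451, 376, 385, 335 and 430 CPM in Wild-Type. Both the lowest and the highest library were Knockout, and the log2 fold change was 0.09 ± 0.13 (edgeR adjusted p = 0.811). Between 80.0% and 95.6% of Elf5 reads lay on a form of 819 bases that GENCODE M21 does not list. It was placed in Elf5 because the authors' gene value was 5.02 to 22.6 times that of the listed forms and adding the 819-base form reproduced it in all 11 libraries. That form had a log2 fold change of 0.16 ± 0.16 (edgeR adjusted p = 0.839), and the main listed form had one of -0.25 ± 0.27 (adjusted p = 0.866). Knockout 4 had the greatest share of the 819-base form, 95.6%.

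Cish, an SH2 inhibitor induced by STAT5 (chr9:107296026-107302784, plus strand), was lower in Knockout. It ran from 3.58 CPM through a median of 5.78 to 7.95 in Knockout and was 7.62, 11.4, 17.7, 10.1 and 10.4 CPM in Wild-Type. In 5 of 6 Knockout libraries it was below every Wild-Type library, and only Knockout 4 and Wild-Type 1 overlap. The means were 5.72 ± 1.64 (SD, n = 6) and 11.5 ± 3.78 CPM (SD, n = 5), and the fitted log2 fold change was -0.999 ± 0.24 (SE). It missed the threshold in edgeR (adjusted p = 0.211), passed it in DESeq2 (adjusted p = 0.00814), and missed it in DESeq2 with transcript length factors, where the log2 fold change was -0.82 (adjusted p = 0.141). By unadjusted p it ranked 67 of all tested genes.

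The Cish difference was as large without the libraries highest in B cell markers: -1.05 without Wild-Type 2 and Wild-Type 5 (edgeR adjusted p = 0.360). The highest library, Wild-Type 3, had 3.95 CPM of B cell markers. Of the Cish words of 31 bases, 37.15% also occur in Gm17041, an antisense gene that was not among the listed genes, so reads of the 2 could not be separated here; whether strand was used in counting is not given in the sources used here.

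The SOCS genes were low and variable. Socs2, which mainly restrains growth hormone signalling (chr10:95385362-95417180, minus strand), was at 2.48, 15.7, 6.23, 6.27, 3.41 and 2.90 CPM in Knockout libraries 1 to 6. In Wild-Type libraries it was at 2.97, 2.92, 5.92, 3.21 and 3.08 CPM. The groups overlap, and 1 library sets the size of the difference: the log2 fold change was 0.76 ± 0.47 (edgeR adjusted p = 0.534) with all libraries and 0.23 without Knockout 2. Of the Socs2 words, 66.2% also occur in Gm8000 and Gm9847, which were not among the listed genes.

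Socs3, a strong inhibitor of JAK signalling (chr11:117966079-117970047, minus strand), ran from 0.791 to 3.58 CPM in Knockout. In Wild-Type it was 1.40, 1.88, 2.32, 2.42 and 1.79 CPM, inside the Knockout range (log2 fold change -0.10 ± 0.32, edgeR adjusted p = 0.926). Socs1, another direct JAK inhibitor (chr16:10782240-10785536, minus strand), was the lowest of all, with 5 to 24 reads per library. It ran from 0.142 to 0.532 CPM in Knockout and was 0.315, 0.584, 0.219, 0.515 and 0.806 CPM in Wild-Type. The groups overlap (log2 fold change -0.73 ± 0.41, edgeR adjusted p = 0.491), and the fold change was -0.27 without Wild-Type 2 and Wild-Type 5 (adjusted p = 0.908).

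Levels of different genes were compared as CPM per kilobase of coding sequence, over the 11 libraries. Elf5 stood first at 500.4 ± 78.4 (SD), then Stat5a at 49.7 ± 13.9 and Stat5b at 18.5 ± 3.34. Ghr at 10.8 ± 2.34, Cish at 10.8 ± 5.17 and Jak2 at 10.2 ± 1.58 could not be ordered, and Socs2 followed at 8.27 ± 6.33. Within genotype the means of this group fell in another order: Ghr 12.4, Jak2 10.6, Socs2 10.2 and Cish 7.40 in Knockout, and Cish 14.8, Jak2 9.85, Ghr 8.87 and Socs2 5.98 in Wild-Type. Prlr at 3.95 ± 0.629, Socs3 at 2.79 ± 1.11 and Socs1 at 0.592 ± 0.325 were lowest. The ranges of Elf5 and Stat5a, and of Stat5a and Stat5b, did not overlap, and every later neighbour overlapped the next. On the same scale the milk protein genes Csn2 and Wap stood at 229907 ± 38457 and 203466 ± 40834, the luminal keratin Krt8 at 132 ± 41.5 and the adipocyte hormone Adipoq at 56.9 ± 10.97.

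Across the 11 libraries, 8 relations were examined as deviations from the genotype means of log2 CPM. The closest was Stat5a with Stat5b, with a Pearson r of 0.70 (exact permutation p = 0.0162, adjusted p = 0.130) and a Spearman rho of 0.59 (p = 0.0616, adjusted p = 0.472). It was 0.59 (permutation p = 0.1003) without Wild-Type 2 and Knockout 4, 0.64 among Knockout and 0.83 among Wild-Type libraries. The pair shares sequence, so a read can be divided between them. None of the 8 passed the adjustment. Prlr with Elf5 had r = 0.46 and Prlr with Stat5a had r = 0.37, and without Knockout 1 and Knockout 2 they were 0.13 and -0.14. Cish with Socs2 had r = -0.09, from -0.44 among Knockout and 0.87 among Wild-Type libraries. Cish with Socs3 had r = -0.01, from -0.26 and 0.70; the difference between genotypes was not tested for either pair. Jak2 with Ghr was at -0.30, or 0.37 in log2 TPM and -0.67 without Wild-Type 4 and Knockout 2. Elf5 with the luminal markers was at -0.47, or 0.041 in log2 TPM and -0.73 without Knockout 2 and Knockout 5.

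For the genes with the most similar pattern, r was computed in the same way against 7502 genes with a mean of at least 5 CPM, as a description with no test. For Prlr these were Rogdi (0.94), Baiap2l1 (0.93) and the casein gene Csn2 (0.93). For Elf5 they were Rnf145 (0.98), Nudt16l1 (0.97) and Rph3al (0.95), and for Stat5a they were Tob2 (0.91), Ppp3r1 (0.91) and Ahdc1 (0.91). For Cish they were Tgds (0.92), Gpt2 (0.92) and Srp54c (0.87), and for Ghr Ciao2b (0.92) and Tubgcp2 (0.90). All libraries share the large fraction of milk protein reads, and in log2 TPM 4 of these values fell most: Tgds to 0.24, Srp54c to 0.44, Tob2 to 0.49 and Baiap2l1 to 0.54.

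The genes around these 10 were taken by role, and edgeR called none in any of the 7 lists; each count at an unadjusted p under 0.05 stands against 12.4% of all tested genes. Of the 8 milk protein genes, the main output of STAT5, all 8 had a lower Knockout mean and none an unadjusted p under 0.05 (median log2 fold change -0.27, against -0.01 over all tested genes). They share a large part of the reads, so their CPM values are not independent. Wap, the whey acidic protein, averaged 73944 ± 13370 (SD, n = 6) and 92556 ± 14970 CPM (SD, n = 5), Knockout first, with a log2 fold change of -0.32 ± 0.15. The caseins Csn2 (-0.27 ± 0.13) and Csn1s1 (-0.24 ± 0.12) had similar values.

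Among 7 tested of 10 other prolactin or STAT5 targets, 5 were higher and 2 lower (median 0.17), with 1 at an unadjusted p under 0.05. That was the secreted signal Wnt4 (means 0.604 ± 0.162 and 0.378 ± 0.0764 CPM, SD, log2 fold change 0.66 ± 0.27). The repressor Bcl6 (0.40 ± 0.28) and the cyclin Ccnd1 (0.25 ± 0.29) did not reach it. Bcl6 was at 0.25 without Wild-Type 2, and Ccnd1 at 0.032 without Knockout 3.

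Of 15 ligands and other JAK2-coupled receptors, 10 were tested, 6 higher and 4 lower (median 0.06). Prl and Gh, the ligands of the 2 receptors, were too low to test. Csf2rb, the shared chain of the GM-CSF and interleukin-3 receptors, averaged 18.5 ± 5.46 (SD, n = 6) and 28.9 ± 7.48 CPM (SD, n = 5), Knockout first (log2 fold change -0.65 ± 0.22, edgeR adjusted p = 0.310). Its partner Csf2ra had a log2 fold change of -0.32 ± 0.15, and Il6st, the shared chain of the interleukin-6 family receptors, one of 0.24 ± 0.11; these 3 were the ones at an unadjusted p under 0.05. With transcript length factors in DESeq2, Csf2rb was at -0.21 and Il6st at 0.95, and neither passed. Without Wild-Type 2 and Wild-Type 5, Il6st was at 0.135.

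The 8 other JAK and STAT genes were 4 higher and 4 lower (median -0.06), and Jak3, the kinase of the lymphocyte cytokine receptors, alone had an unadjusted p under 0.05 (-0.28 ± 0.12; -0.16 without Wild-Type 2 and Wild-Type 5). Tyk2 had a log2 fold change of -0.15 ± 0.08, or -0.08 without that pair. Stat4 had one of -0.95 ± 0.62, which was 0.47 without Wild-Type 2 and Wild-Type 5.

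Among 14 other SOCS genes and negative regulators, 9 were higher and 5 lower (median 0.06), with 3 at an unadjusted p under 0.05 (12.4% of all genes). The phosphatase Ptpn6, most abundant in blood cells, averaged 9.91 ± 1.74 (SD, n = 6) and 18.5 ± 8.29 CPM (SD, n = 5), Knockout first. Its log2 fold change of -0.90 ± 0.25 passed in DESeq2 (adjusted p = 0.0332) but not in DESeq2 with transcript length factors (-1.12, adjusted p = 0.0788) or in edgeR (adjusted p = 0.268), and it was -0.35 without the 2 libraries high in B cell markers. Socs5 (0.36 ± 0.13) and the ubiquitin ligase Cbl (0.56 ± 0.24) were the others.

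The 12 adaptors and kinases of the ERK and PI3K branches divided evenly, 6 higher and 6 lower (median 0.00), with none at an unadjusted p under 0.05. The smallest p-values were those of the kinases Fyn (-0.41 ± 0.20) and Nek3 (-0.33 ± 0.18) and the adaptor Shc1 (0.16 ± 0.10). Without Wild-Type 2 and Wild-Type 5, Fyn was at -0.0031. Of 11 mammary transcription factors, 10 were tested, 7 higher and 3 lower (median 0.22). The ETS factor Ehf (0.27 ± 0.11), the luminal factor Gata3 (0.28 ± 0.12) and Id2, which is needed for lobulo-alveolar development (0.59 ± 0.25), had an unadjusted p under 0.05 (12.4% of all genes). Without Wild-Type 2 and Wild-Type 5, Ehf was at 0.15. Like the fibroblast and myoepithelial markers, all 6 luminal markers also had higher Knockout means, 2 at an unadjusted p under 0.05 and none called by edgeR or DESeq2, with sums of 556 to 876 CPM with Cre and 406 to 778 CPM without it; their part was not tested.

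**Figure D5:**
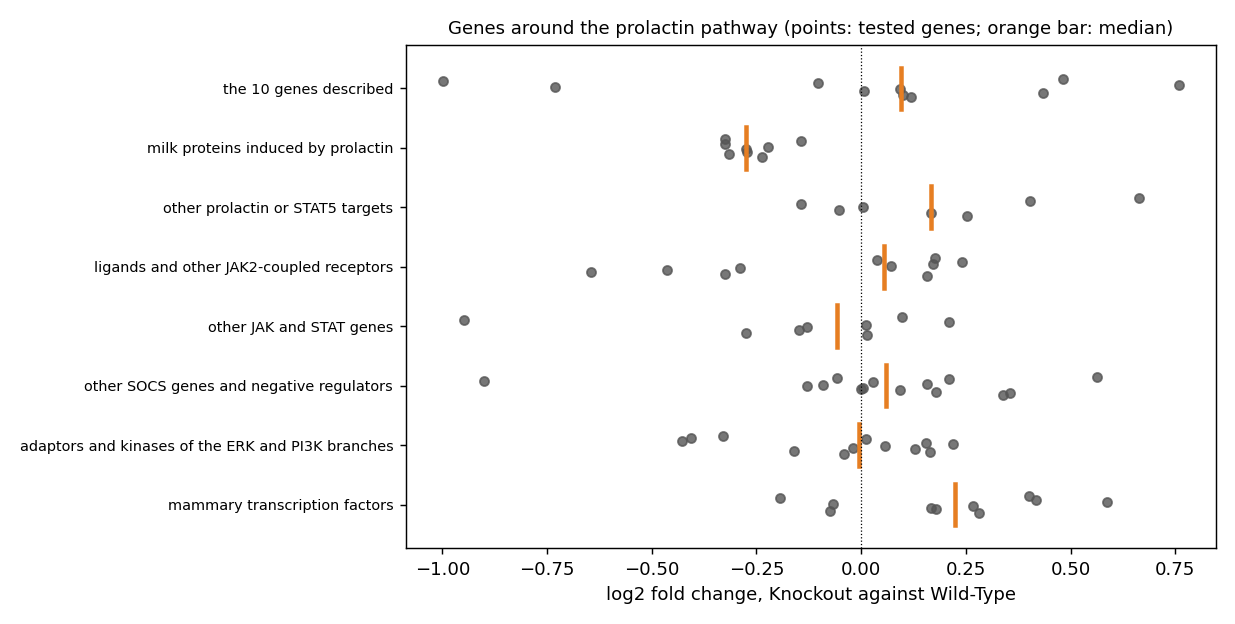
Log2 fold change of Knockout against Wild-Type (horizontal axis) for the 10 genes and 7 lists around them, with 1 point per tested gene and the median as an orange bar. The milk protein points all lie below 0, with a median of -0.27, and the other lists lie on both sides.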

How the data were processed

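RNA-seq was available for 11 glands, grouped by sample title. Per the submitters' processing notes, Salmon 1.3.0, DESeq2 1.28.1 and GRCm38.p6 were used. Per the file headers, the deposited Salmon tables give each transcript's length, effective length in bases, TPM and estimated counts (NumReads). The authors also deposited gene values that the table's name calls DESeq2-normalized, used here as a signal.

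Estimated counts were summed per gene (GENCODE M21) and rounded. Of 752 transcripts absent from M21, 131 were placed in the gene whose deposited value they completed in all libraries (relative tolerance 1e-06), a step chosen after seeing the data. Unplaced transcripts held at most 0.045% of reads. The main test was edgeR 4.0.16 (R 4.3.3; TMM, filterByExpr, quasi-likelihood F test, genotype only) with Benjamini-Hochberg adjustment over all genes or transcripts. DESeq2 1.42.0 and limma 3.58.1 were alternatives, with other scalings, filters, length factors, a replicate block and libraries left out; the scripts were tested on simulated data. CPM uses TMM-scaled totals. Shares and sums were tested over all 462 assignments of libraries, for which the smallest p is 0.0022.

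The genes and lists were chosen with earlier results of these data known. Named were the 10 genes, each Prlr transcript, Tsc1, Csn2, Wap, the 3 smallest p-values in each list, and 3 nearest genes for Prlr, Elf5, Stat5a, Cish and Ghr, of which 1 is not reported here. Ghr and other transcripts were named after their values were seen.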

Additional observations from a re-analysis of the deposited data

Results flagged for a closer look

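In 28 groups examined, 2 libraries stood apart from the rest of their group by Dixon's test, where chance gives about 1.4. Both concern Socs2. Knockout 2 had 15.7 CPM, where the other Knockout libraries had 2.48 to 6.27 CPM, and Wild-Type 3 had 5.92 CPM, where the other Wild-Type libraries had 2.92 to 3.21 CPM. Knockout 2 also had the highest Socs3 (3.58 CPM) and Jak2 (41.2 CPM) of the Knockout libraries and the lowest Cish (3.58 CPM) and Elf5 (288 CPM). Wild-Type 3 had the highest Cish (17.7 CPM) of all libraries.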

How the results depend on the processing

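Counting error limits features with few reads, such as Socs1 and Prlr-205. The labels do not say whether the replicate numbers pair the mice. Same-numbered libraries had correlations of -0.03, -0.09, 0.19, -0.23 and -0.21, and different-numbered ones ranged from -0.50 to 0.26. Of 5 Knockout libraries, 1 was closest to its own number, and these values cannot settle whether the numbers pair the mice. The replicate block leaves out Knockout 6, since no Wild-Type library has its number. Over all genes, the 8 called by edgeR became 0 with the replicate block (1028 at an unadjusted p under 0.05), 3 without Wild-Type 2 and Wild-Type 5, 145 with DESeq2, 139 with DESeq2 and length factors, and 0 to 30 with 1 library left out. The transcript call became 0 with the block (1087 at an unadjusted p under 0.05) and 0 to 7 with 1 library left out. With the block the Prlr long form share differed by -0.215 points and the Stat5a share by 6.22 points. For the Stat5a share the exact sign-flip p was 0.0625, the smallest that 5 pairs allow. Leaving out Knockout 6 alone gave the same differences, -0.215 and 6.22 points. With any 1 library left out the Prlr share difference ranged from -1.06 to 1.12 points and the Stat5a share difference from 4.37 to 6.22. In log2 TPM the Stat5 sum differed by 1.00. DESeq2 added calls for Cish (-0.998), Ghr (0.49; 0.52 with length factors) and Ptpn6 (-0.90). Signs reversed for Jak2 (-0.054), Stat5b (-0.21) and Stat4 (0.47) without Wild-Type 2 and Wild-Type 5. With the block, which also leaves out Knockout 6, signs reversed for Stat5b (-0.016) and Prlr-205 (-0.11). Without Knockout 6 alone, Stat5b was at -0.044 and Prlr-205 at 0.024. With 1 library left out Stat5b ranged from -0.10 to 0.13, Socs3 from -0.40 to 0.049 and Prlr-205 from -0.32 to 0.23. Of the relations, Prlr with Stat5a became -0.14 without 2 libraries and -0.0086 in TPM, Cish with Socs2 0.31 without 2, Cish with Socs3 0.58 without 2 and 0.073 in TPM, Jak2 with Ghr 0.37 in TPM and Elf5 with luminal markers 0.041 in TPM. In TPM Ghr with adipocyte markers was 0.72. The causes were not tested. Cish stayed lower (-1.12 to -0.79) and Ghr higher (0.39 to 0.55) with any 1 library left out, neither passing in edgeR.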
